A study of Mus musculus with 2 samples.

Results

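The short noncoding RNAs of the spliceosome, the signal recognition particle, 7SK and the ribozymes RNase P and RNase MRP were described in mouse adrenal gland. Members were genes that GENCODE M21 types as snRNA, misc_RNA or ribozyme and that had at least 1 TPM (a level divided by usable transcript length and scaled to a common library sum) in the RSEM-format gene table of both libraries. This rule kept 56 of 1969 genes of the 3 types, out of 55536 annotated genes. They comprised 30 of 1385 snRNA genes, 23 of 562 misc_RNA genes and 3 of 22 ribozyme genes, and 1793 genes of the 3 types were listed at 0 in both libraries. The members were thus selected on their TPM in these same libraries, and their levels are given as a description. The study sequenced total RNA of whole adrenal glands from 2 adult male B6CASTF1/J mice aged 8 to 10 months, F1 animals from a C57BL/6J by CAST/EiJ cross. There was 1 group without treatment, with biological replicate 2 from animal 4 and replicate 1 from animal 2. Each library used 300 ng of RNA, a strand-keeping kit and ERCC spike-ins. Every ratio therefore sets 1 animal against 1 animal and has no replicate check or p-value.

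U1 and U2 are the RNAs with which the major spliceosome recognises the start of an intron and its branch point, and U11 and U12 do so in the minor spliceosome, which removes a rare class of introns. 7SL is the scaffold of the signal recognition particle, which brings ribosomes that make secreted and membrane proteins to the endoplasmic reticulum. 7SK holds the elongation kinase P-TEFb inactive, RNase P RNA trims the leader of precursor tRNAs, and RNase MRP RNA takes part in ribosomal RNA maturation. Most of these RNAs come from multicopy gene families with many pseudogenes, so reads often fit several genes equally well.

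Replicate 2 held 33987434 and replicate 1 held 29994901 expected counts on annotated genes. A count of 0 allowed up to 3 counts, which is 0.0883 CPM (counts scaled by the library's total) in replicate 2 and 0.1 CPM in replicate 1, and such floors and the intervals below cover counting error only. ERCC spike-ins took 0.238% of counts in replicate 2 and 0.243% in replicate 1. The 3 cortex markers (Star, Cyp11a1 and Cyp11b1) were all detected and summed to 9801 TPM in replicate 2 and 12771 TPM in replicate 1, and the 3 medulla markers (Th, Chga and Pnmt) were detected at a sum of 1338 TPM in replicate 2 and 2083 TPM in replicate 1. The 5 fat markers (Fabp4, Plin1, Cfd, Ucp1 and Cidea) summed to 996 TPM in replicate 2 and 130.9 TPM in replicate 1, and 3 of the 5 reached 1 TPM in both. The red cell markers Hba-a1 and Hbb-bs summed to 1639 TPM in replicate 2 and 983 TPM in replicate 1, and the macrophage markers Lyz2 and C1qa to 211 TPM in replicate 2 and 125 TPM in replicate 1. The part of this unequal cell makeup in any ratio below was not tested, and in whole tissue fewer cells of a type and less RNA per cell cannot be told apart.

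The sequences below carry the differences on which the U1 and U2 values turn. They are the annotated transcripts of GENCODE M21 on mm10 (GRCm38), written 5′ to 3′ as DNA. For U1, Rnu1a1 (chr11:87422867-87423030, plus strand) has 6 further copies of identical sequence, while Gm22513 (chr12:54696782-54696945, plus strand), Gm24305 (chr12:54734555-54734718, minus strand) and Gm23238 (chr19:18732741-18732904, plus strand) differ from it by 1 to 4 bases. Capitals mark the bases that differ between Rnu1a1 and these relatives.
Rnu1a1: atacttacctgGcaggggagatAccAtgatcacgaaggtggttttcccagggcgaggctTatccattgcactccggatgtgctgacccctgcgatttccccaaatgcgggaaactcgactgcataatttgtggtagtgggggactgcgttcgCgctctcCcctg
Gm22513: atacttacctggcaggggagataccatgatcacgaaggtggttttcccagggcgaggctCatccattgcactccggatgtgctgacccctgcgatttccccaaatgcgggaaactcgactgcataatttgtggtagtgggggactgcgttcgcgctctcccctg
Gm24305: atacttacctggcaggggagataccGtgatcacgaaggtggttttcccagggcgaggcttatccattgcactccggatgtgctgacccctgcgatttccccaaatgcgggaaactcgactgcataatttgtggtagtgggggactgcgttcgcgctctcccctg
Gm23238: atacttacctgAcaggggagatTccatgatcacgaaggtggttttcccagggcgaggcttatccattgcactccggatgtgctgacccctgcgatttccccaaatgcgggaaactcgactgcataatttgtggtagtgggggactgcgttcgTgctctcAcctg

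Counted from 1 at the 5′ end, with the base of Rnu1a1 first, Gm22513 has T60C, Gm24305 has A26G, and Gm23238 has G12A, A23T, C153T and C160A. All 12 U1 members hold ACTTACCTG, the letters with which U1 pairs with the start of an intron, beginning at position 3 in Rnu1a1. This run was found on the sense strand of 2.95% of the 1967 genes of the 3 types that have a transcript sequence, and in none on the antisense strand (0 genes). It does not overlap the run ATTTNTG, the letters of the Sm protein binding site, which begins at position 126 in Rnu1a1. On the sense strand ATTTNTG stood in all 12 U1 and all 11 U2 members and in 27 of the 56 members, against 16.6% of all 1967 genes. Of the 27, 26 were snRNA members, and 20.5% of the 1383 snRNA genes with a sequence held it. Genes of identical or similar sequence were counted separately. On the antisense strand it stood in 0 of the 56 members and in 215 of all genes. A match describes the letters only.

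In the RSEM-format tables U1 RNA came mainly from 1 sequence. Its 12 members summed to 8060 TPM in replicate 2 and 7038 TPM in replicate 1, and to 15530 counts in replicate 2 and 12624 counts in replicate 1. These were 0.0457% of counts in replicate 2 and 0.0421% in replicate 1. The other deposited quantification, in kallisto format, listed all 12 at 0 in both libraries. Of 84 genes within 25% edit distance of a named U1 gene, 20 had any count. The 7 identical copies, Rnu1a1, Gm22068, Gm22317, Gm22634, Gm23804, Gm25679 and Gm26444, together held 6577 TPM in replicate 2 and 5265 TPM in replicate 1. Every copy was given the same expected count, 1810 in replicate 2 and 1349 in replicate 1, so the expected counts hold 1 value for the sequence and none of its own for any gene. The authors' posterior means differed by copy, from 667.92 to 1056 TPM in replicate 2 and from 554 to 826 TPM in replicate 1. The reference assembly is of C57BL/6J, and CAST/EiJ alleles of these genes were not told apart here. The posterior standard deviation, the authors' measure of how uncertain an estimated count is, was 51.5 to 69.6% of the posterior mean over these copies in replicate 2 and 47.0 to 83.0% in replicate 1. Rnu1a1 and Gm22068 lie on chromosome 11 in a Tex14 intron, 87422867 to 87426879. The other 5 copies lie on chromosome 12, in a cluster of 7 U1 members that spans 41.8 kb.

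The U1 genes with a sequence of their own had other ratios than the copies. Over all copies the count ratio, replicate 2 over replicate 1 after scaling, was 1.15 (95% counting interval 1.12 to 1.18). Gm22513 had 775 TPM in replicate 2 and 743 TPM in replicate 1, a ratio of 0.964 (0.895 to 1.04) whose interval includes equality. Gm23238, alone on chromosome 19, had 460 TPM in replicate 2 and 741 TPM in replicate 1, a ratio of 0.573 (0.526 to 0.624). Gm24305, in the chromosome 12 cluster, had 121 TPM in replicate 2 and 193 TPM in replicate 1, a ratio of 0.576 (0.486 to 0.683). Both were lower in replicate 2, and the summed U1 ratio was 1.06 (1.03 to 1.08). The posterior standard deviation was 10.0% in replicate 2 and 11.4% in replicate 1 for Gm23238, and 23.4% in replicate 2 and 26.8% in replicate 1 for Gm24305, against 0.136% in replicate 2 and 0.153% in replicate 1 for Gm22513.

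U1 genes of the chromosome 3 locus were a small share of the family. The identical pair Gm22614 and Gm25890 (96486555 to 96488893) differs from Rnu1b1 by T33C, with the base of Rnu1b1 first. Each gene of the pair had 63.6 TPM in replicate 2 and 48.5 TPM in replicate 1. The sequence of Rnu1a1 and its copies exceeded this pair 51.7 times in replicate 2 and 54.3 times in replicate 1 (53.0 ± 1.85, SD, n = 2). By the posterior means the pair summed to 103 TPM in replicate 2 and 56.6 TPM in replicate 1, and was exceeded 61.9 times in replicate 2 and 89.5 times in replicate 1. Its posterior standard deviation was 43.9 to 57.7% in replicate 2 and 55.4 to 66.8% in replicate 1. Rnu1b1 and Rnu1b2, an identical pair, were listed at 0 in both libraries. Rnu1b6, one of 3 identical genes, was at 0 in replicate 2 and 3.49 TPM in replicate 1.

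For U2 the sequences shown are Rnu2-10 (chr11:101658238-101658428, plus strand), which has 3 identical copies, Gm23444 (chr11:83271498-83271688, plus strand), which has 1, Gm24497 (chr1:72244213-72244403, plus strand) and Gm25939 (chr1:72255008-72255198, plus strand). They are shown because position 109 separates 10 of the 11 members into 2 sequence classes. Gm22973, 9 edits from Rnu2-10, was placed in neither. Capitals in Rnu2-10 mark bases that differ in any of its relatives, and in the others the bases that differ from Rnu2-10.
Rnu2-10: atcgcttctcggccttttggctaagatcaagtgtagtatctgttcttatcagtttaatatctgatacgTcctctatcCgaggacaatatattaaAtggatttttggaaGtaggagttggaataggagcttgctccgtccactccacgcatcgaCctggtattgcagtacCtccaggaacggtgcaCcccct
Gm23444: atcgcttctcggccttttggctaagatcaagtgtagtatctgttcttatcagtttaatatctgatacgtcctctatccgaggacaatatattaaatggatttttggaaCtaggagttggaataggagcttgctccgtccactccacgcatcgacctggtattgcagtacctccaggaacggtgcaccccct
Gm24497: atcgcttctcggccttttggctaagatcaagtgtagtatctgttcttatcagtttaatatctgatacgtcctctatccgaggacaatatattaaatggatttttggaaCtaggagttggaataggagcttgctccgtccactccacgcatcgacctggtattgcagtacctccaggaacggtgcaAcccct
Gm25939: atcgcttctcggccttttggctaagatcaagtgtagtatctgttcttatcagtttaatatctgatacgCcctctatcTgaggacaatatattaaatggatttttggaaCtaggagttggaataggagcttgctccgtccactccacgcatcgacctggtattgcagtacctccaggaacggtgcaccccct

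With the base of Rnu2-10 first, Gm23444 has G109C, Gm24497 has G109C and C186A, and Gm25939 has T69C, C78T and G109C. Gm25360 has C78T, A95G, G109C and C154T, and Gm26316 has C170T. The classes follow the loci. The 5 members within 53.6 kb on chromosome 11 (101604850 to 101658428), which are Rnu2-10, Gm23849, Gm23971, Gm24950 and Gm26316, match Rnu2-10 at position 109. The 4 members within 29.0 kb on chromosome 1 (72226240 to 72255198), which are Gm25360, Gm23472, Gm24497 and Gm25939, carry G109C, as does Gm23444 elsewhere on chromosome 11. All 11 U2 members hold GTAGTA, the letters with which U2 pairs with the branch point. It begins at position 33 in Rnu2-10, apart from ATTTNTG at position 99, and occurs on the sense strand of 3.10% of all 1967 genes and on the antisense strand of 32.

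Of the spliceosomal RNAs listed above 0, U2 had the highest summed TPM. Its 11 members, of 18 genes of the family, summed to 12603 TPM in replicate 2 and 11100 TPM in replicate 1. By TPM, U1 stood at 0.640 of U2 in replicate 2 and 0.634 in replicate 1 (0.637 ± 0.00388, SD, n = 2). This proportion rests on usable transcript lengths of 64 bases for Rnu1a1 and 91 for Rnu2-10, the same in both libraries. By counts U1 held 15530 in replicate 2 and 12624 in replicate 1, against 34518 in replicate 2 and 28302 in replicate 1 for U2. Rnu2-10 and its copies Gm23849, Gm23971 and Gm24950 were each given 1748 TPM in replicate 2 and 1371 TPM in replicate 1, and the identical genes Gm23444 and Gm23472 2124 TPM in replicate 2 and 2443 TPM in replicate 1. By expected counts the first sequence had a summed ratio of 1.18 (1.15 to 1.20) and the second 0.803 (0.783 to 0.823). By the posterior means the second summed to 3683 TPM in replicate 2 and 3540 TPM in replicate 1, a scaled count ratio of 0.961, while the first had 1.18. The posterior standard deviation of Gm23444 and Gm23472 was 25.9 to 29.7% in replicate 2 and 29.2 to 31.9% in replicate 1. The TPM of this pair was thus lower in replicate 2 by the expected count and higher by the posterior mean. The 5 members that match Rnu2-10 at position 109 summed to 7015 TPM in replicate 2 and 5500 TPM in replicate 1. The 5 with G109C summed to 5577 TPM in replicate 2 and 5595 TPM in replicate 1, a count ratio of 0.921 (0.900 to 0.942), or 0.922 by the posterior mean, while all U2 members had 1.05 (1.03 to 1.07).

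Within the G109C class, 1 gene stood far apart between the libraries. Gm24497 had 691 TPM in replicate 2 and 136 TPM in replicate 1, and 1893 counts in replicate 2 against 346 in replicate 1, a ratio of 4.70 (4.19 to 5.29). By the authors' posterior mean the same gene stood at 1142 TPM in replicate 2 and 1359 TPM in replicate 1, with a posterior standard deviation of 27.8% in replicate 2 and 40.0% in replicate 1. Its ratio thus lies above equality by the expected count and below it by the posterior mean. Gm25939, also in the chromosome 1 cluster, had 592 TPM in replicate 2 and 543 TPM in replicate 1, with a ratio of 1.01 (0.936 to 1.08) and a posterior standard deviation of 0.310% in replicate 2 and 0.209% in replicate 1. Gm23472, Gm24497 and Gm25939 lie in introns of D230017M19Rik. The lowest U2 members were Gm25360 at 46.5 TPM in replicate 2 and 29.4 TPM in replicate 1, Gm26316 at 23.3 TPM in replicate 2 and 14.02 TPM in replicate 1, and Gm22973 on chromosome 12 at 10.6 TPM in replicate 2 and 5.10 TPM in replicate 1.

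A pair of snRNA genes on chromosome 5, less than 1 kb apart, held the highest ratio among members with a mean of 100 counts and a posterior standard deviation under 10%. The annotation gives Gm24265 (chr5:115489459-115489599, plus strand) and Gm24407 (chr5:115490254-115490394, plus strand) the type snRNA without a family name. No U4 gene was among the named RNAs used to place families, so whether the pair is U4 was not tested. Both hold ATTTNTG, at position 119 in Gm24265. With the base of Gm24265 first, Gm24407 has G88A and C99A, and capitals mark these bases.
Gm24265: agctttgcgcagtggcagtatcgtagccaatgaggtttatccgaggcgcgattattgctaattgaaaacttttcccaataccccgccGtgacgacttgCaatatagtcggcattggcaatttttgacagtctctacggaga
Gm24407: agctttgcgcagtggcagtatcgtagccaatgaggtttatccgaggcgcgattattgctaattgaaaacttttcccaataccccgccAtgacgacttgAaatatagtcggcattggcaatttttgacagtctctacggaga

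Gm24265 had 1647 TPM in replicate 2 and 978 TPM in replicate 1, and Gm24407 had 1796 TPM in replicate 2 and 819 TPM in replicate 1. Both genes were higher in replicate 2, Gm24265 with a ratio of 1.56 (1.45 to 1.67) and Gm24407 with 2.02 (1.88 to 2.19). Together they held 4248 counts in replicate 2, against 2064 in replicate 1, a ratio of 1.77 (1.68 to 1.87). The posterior standard deviation was at most 0.0251% of the posterior mean. Of 7 genes of this sequence family only these 2 had any count.

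RNAs of the minor spliceosome had few counts. Rnu12, the U12 RNA (chromosome 15, 83149644 to 83149794, plus strand), had 32.6 TPM in replicate 2 and 22.4 TPM in replicate 1, from 50 counts in replicate 2 and 32 in replicate 1. Rnu11, the U11 RNA (chromosome 4, 132270080 to 132270213, minus strand), had 5.86 TPM in replicate 2 and 4.20 TPM in replicate 1, from 6 counts in replicate 2 and 4 in replicate 1. Their ratios of 1.34 (0.845 to 2.16) and 1.29 (0.306 to 6.21) both have intervals that include equality. U2 exceeded U12 by 387 times in replicate 2 and 496 times in replicate 1, and U1 exceeded U11 by 1375 times in replicate 2 and 1676 times in replicate 1. With so few counts of U11 and U12 these proportions are coarse.

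**Figure D1:**
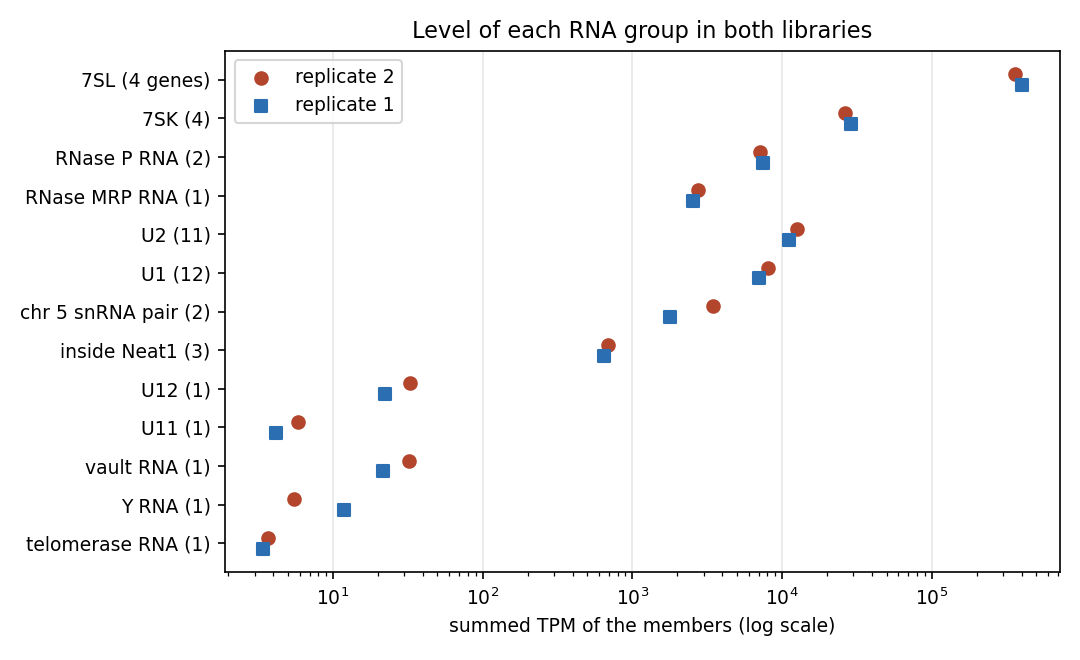
Summed TPM of the members of each RNA group (log axis), with replicate 2 as circles above replicate 1 as squares. The levels span 5 orders of magnitude, with 7SL at 358841 TPM in replicate 2 and 400264 TPM in replicate 1, and the telomerase RNA at 3.70 TPM in replicate 2 and 3.43 TPM in replicate 1. The widest gap between libraries among the 7 groups at the top is that of the chromosome 5 pair.

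7SL made up most of the members' signal. Rn7s1 and Rn7s2, identical genes on opposite strands of chromosome 12 (69159295 to 69159594, plus, and 69361182 to 69361481, minus), each had 179417 TPM in replicate 2 and 200126 TPM in replicate 1. All 56 members took 42.2% of the TPM of annotated genes in replicate 2 and 46.1% in replicate 1 (44.2 ± 2.82%, SD, n = 2). Without the 7SL genes the other 52 members took 6.15% of TPM in replicate 2 and 5.98% in replicate 1. By counts, which are not divided by length, all members took 7.24% in replicate 2 and 8.44% in replicate 1 (7.84 ± 0.850%), and 0.880% in replicate 2 and 0.959% in replicate 1 without 7SL. The posterior standard deviation of Rn7s1 and Rn7s2 was 2.00 to 2.06% of the posterior mean over both genes and libraries, unlike that of the U1 and U2 copies, although expected counts were split evenly here too. The summed 7SL ratio was 0.828 (0.826 to 0.829), lower in replicate 2.

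Genes related to 7SL were far lower. Rn7s6 (chr6:69516339-69516629, plus strand) had 3.37 TPM in replicate 2 and 6.57 TPM in replicate 1, and Gm26461, in an intron of Zfp949, 4.20 TPM in replicate 2 and 5.46 TPM in replicate 1. The kallisto-format table placed more on Rn7s6, with 25.2 TPM in replicate 2 and 30.3 TPM in replicate 1, against 3.37 TPM in replicate 2 and 6.57 TPM in replicate 1 in the RSEM-format table.

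7SK came almost wholly from 1 gene. Rn7sk (chromosome 9, 78175303 to 78175633, minus strand) had 26435 TPM in replicate 2 and 28828 TPM in replicate 1, from 183789 counts in replicate 2 and 186586 in replicate 1. Its posterior standard deviation was 0.00158% of the count in replicate 2 and 0.00144% in replicate 1. The ratio was 0.847 (0.841 to 0.852), lower in replicate 2. Its first 100 bases (chr9:78175534-78175633, minus strand) are shown with GATC in capitals, the letters of its HEXIM-binding stem.
Rn7sk: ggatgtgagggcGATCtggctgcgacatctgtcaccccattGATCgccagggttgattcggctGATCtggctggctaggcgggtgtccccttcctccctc
They hold all 3 GATC of Rn7sk, the first at position 13. Capitals mark the letters only, and which of the 3 lie in that stem was not tested. GATC reads the same on both strands and occurs in 31.8% of all 1967 genes. The other 7SK-like members, Gm24146, Gm26315 and Gm23037, each had under 5 TPM in both libraries, at 2.56, 3.54 and 1.19 TPM in replicate 2 and 4.32, 3.14 and 1.12 TPM in replicate 1. The ratio of summed 7SL to summed 7SK was 13.6 in replicate 2 and 13.9 in replicate 1 (13.7 ± 0.219, SD, n = 2).

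The RNAs of RNase P and RNase MRP came after 7SL and 7SK in level among the misc_RNA and ribozyme members. Rpph1, the RNase P RNA (chromosome 14, 50807449 to 50807767, minus strand, inside an exon of Ccnb1ip1), had 6380 TPM in replicate 2 and 6786 TPM in replicate 1. Rprl3, an RNase P-like gene on chromosome 8 (3803069 to 3803358, minus strand), had 711 TPM in replicate 2 and 686 TPM in replicate 1, while Rprl2 was listed at 0 in both. Summed, RNase P RNA had a ratio of 0.875 (0.864 to 0.887). Rmrp, the RNase MRP RNA (chromosome 4, 43492788 to 43493058, minus strand), had 2742 TPM in replicate 2 and 2543 TPM in replicate 1 as the ribozyme entry. An overlapping lincRNA entry of the same symbol on the same strand had 2586 TPM in replicate 2 and 2979 TPM in replicate 1. The ribozyme entry alone had a ratio of 0.996 (0.972 to 1.02), below 1 with the scaling used here and above 1 when scaled to library totals or spike-ins, and the lincRNA entry had 0.802 (0.783 to 0.820). Added together the entries held 5328 TPM in replicate 2 and 5522 TPM in replicate 1, with a ratio of 0.888 (0.874 to 0.903). RNase P RNA exceeded the summed Rmrp entries 1.33 times in replicate 2 and 1.35 times in replicate 1 (1.34 ± 0.0158, SD, n = 2).

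Among the other named RNAs, Vaultrc5, the RNA of the vault particle (chromosome 18), had 32.5 TPM in replicate 2 and 21.6 TPM in replicate 1. Rny1, a Y RNA bound by the Ro protein (chromosome 6, 47788069 to 47788180, minus strand), had 5.54 TPM in replicate 2 and 11.9 TPM in replicate 1, but from 2 counts in replicate 2 and 4 in replicate 1. Terc, the telomerase RNA (chromosome 3, 96414437 to 96414859, minus strand), had 3.70 TPM in replicate 2 and 3.43 TPM in replicate 1, from 36 counts in replicate 2 and 31 in replicate 1. The ratio intervals of all 3 include equality.

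Counts allowed 31 members to be compared (mean of 100 or more), and 2 of these 31, Gm24497 and Gm24407, exceeded a 2-fold ratio in replicate 2 with an interval that excludes equality. Over the 12868 annotated genes compared this way 2.41% were so much higher, 1.1% so much lower and 3.51% either, so that a count of 2 among 31 is a description and no result about these RNAs as a group. On the lower side there were 0 of 31 members. The members' median log2 ratio of scaled CPM + 1 was 0.20 over the 47 averaging 10 counts or more, against 0.01 over all 18196 annotated genes, but it counts identical copies separately. With identical genes summed into 1 entry it was -0.0012. By summed RNA, U1, U2 and the chromosome 5 pair were higher in replicate 2, and 7SL, 7SK, RNase P RNA and summed Rmrp were lower, in each of the 4 scalings computed (TMM, DESeq2 size factors, totals and ERCC).

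**Figure D2:**
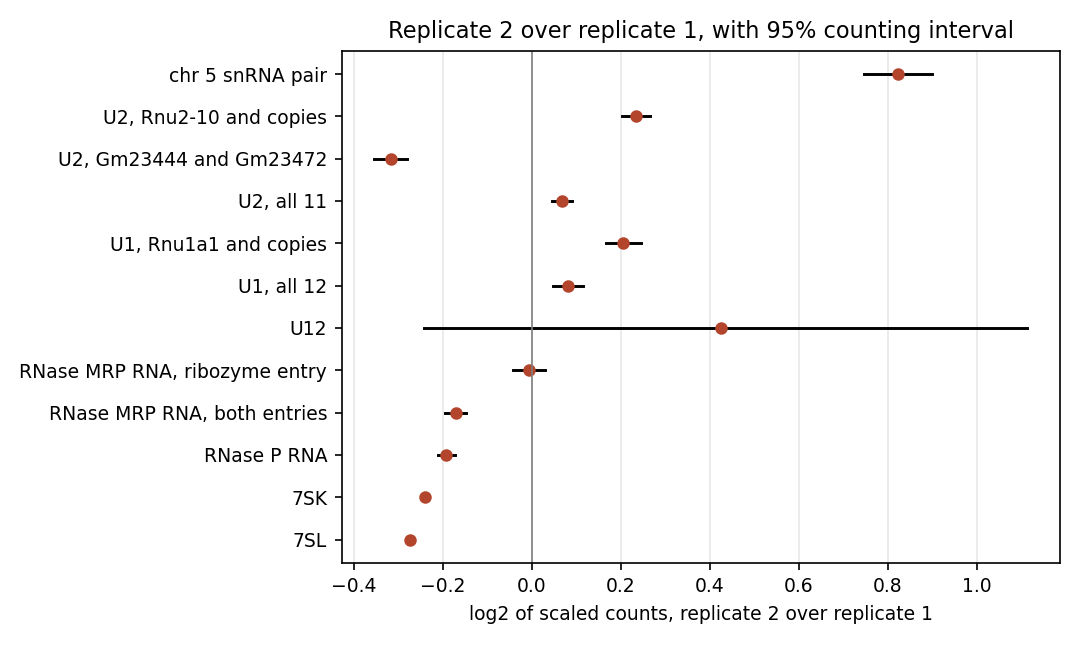
Log2 of the ratio of scaled counts, replicate 2 over replicate 1, for summed RNA groups (points) with 95% counting intervals (lines), which cover counting error only and not the spread between animals. The chromosome 5 pair lies farthest right, the 2 U2 sequences lie on opposite sides of 0 by these expected counts (Gm23444 and Gm23472 had a ratio of 0.961 by the posterior mean), and 7SL lies at -0.27.

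The level of a member depended on which of the 2 quantifications was read, and transcript length divided the members. Of the 38 members of up to 250 bases, which include all U1, U2 and chromosome 5 genes, 29 were listed at 0 in both kallisto-format tables and 0 reached 1 TPM in both. These 38 held 5.89 summed kallisto-format counts in replicate 2 and 7.48 in replicate 1, against 54983 RSEM-format counts in replicate 2 and 43460 in replicate 1. Of the 18 longer members, 14 reached 1 TPM in both kallisto-format tables, and 8 stood higher there than in the RSEM-format tables in both libraries. Rn7s1 and Rn7s2 were each at 220467 TPM in replicate 2 and 238445 TPM in replicate 1 by kallisto, and Rn7sk at 36345 TPM in replicate 2 and 38942 TPM in replicate 1. The other 4 long members were Gm24146 and Gm22637, under 1 TPM by kallisto in both libraries, the Rmrp ribozyme entry, listed at 0 by kallisto with 6606 TPM in replicate 2 and 6250 TPM in replicate 1 on the lincRNA entry instead, and Rprl3, at 0.162 TPM in replicate 2 and 0 in replicate 1.

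**Figure D3:**
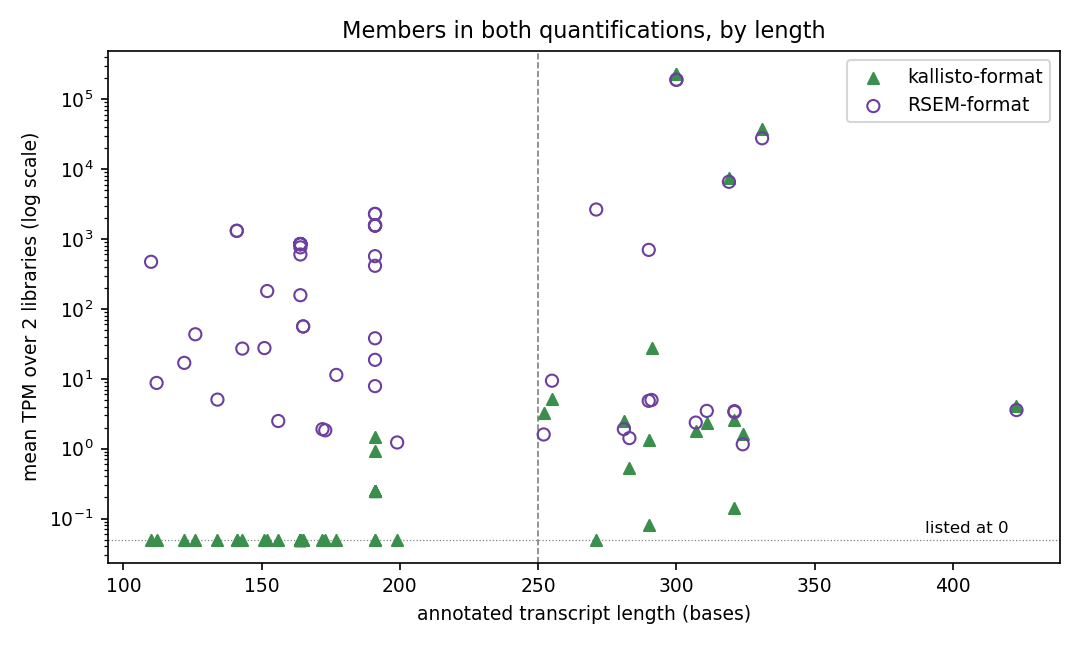
Mean TPM of the 56 members (log axis) in the kallisto-format tables (triangles) and the RSEM-format tables (open circles) against annotated transcript length in bases. The dashed line marks 250 bases, left of which 29 of 38 members are listed at 0 by kallisto and the highest value in a library was 2.94 TPM, and the dotted line holds genes listed at 0.

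A listing above 0 also went with length in the RSEM-format tables, whose effective length was the annotated length minus 100 bases for every gene of the 3 types, or 0 for shorter ones. All 276 genes of up to 100 bases were at 0, among them Rnu7, the U7 RNA used in histone mRNA processing. Of 758 genes of 101 to 107 bases 7 had any count and 0 were members, and these include Rnu6, the U6 RNA at the catalytic centre of the spliceosome, and Rny3, both at 0. In all, 636 U6-like genes held 0 counts in replicate 2 and 3 in replicate 1. Rnu5g, a U5 gene of 116 bases, was at 0 too, as were all 11 U5-like genes. Members were 4 of 194 genes of 108 to 130 bases, 19 of 253 of 131 to 170 bases, 15 of 152 of 171 to 250 bases and 18 of 336 of 251 to 500 bases. For genes of up to 100 bases, with an effective length of 0, a listing at 0 describes no level in the libraries. Whether the short RNAs above 100 bases were missing from the libraries or were not counted cannot be told apart in these tables.

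The same division by effective length sets the worth of 1 count. For Rn7s1 1 count is 0.166 TPM in replicate 2 and 0.178 TPM in replicate 1, for Rnu1a1 0.519 TPM in replicate 2 and 0.558 TPM in replicate 1, and for Gm27505 3.32 TPM in replicate 2 and 3.57 TPM in replicate 1. Gm27505, of 110 bases, accordingly had 425 TPM in replicate 2 and 518 TPM in replicate 1 from 128 counts in replicate 2 and 145 in replicate 1, while Rprl3, of 290 bases, had 711 TPM in replicate 2 and 686 TPM in replicate 1 from 4065 counts in replicate 2 and 3653 in replicate 1. Ranks by TPM and by counts therefore differ among members. By gene type the snRNA members took 2.43% of TPM in replicate 2 and 2.01% in replicate 1 (2.22 ± 0.298%, SD, n = 2), but 0.160% of counts in replicate 2 and 0.144% in replicate 1 (0.152 ± 0.0117%). The misc_RNA members took 38.7% of TPM in replicate 2 and 43.1% in replicate 1, and 6.90% of counts in replicate 2 and 8.10% in replicate 1. The ribozyme members took 0.987% of TPM in replicate 2 and 1.01% in replicate 1, and 0.177% of counts in replicate 2 and 0.192% in replicate 1.

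Counts were uncertain mainly where sequences repeat. A posterior standard deviation above 10% of the posterior mean in either library was found in 24 of 56 members (42.9%), against 467 of 13921 annotated genes with at least 1 TPM in both (3.35%). It was found in 15 of the 17 members with an identical copy, all but Rn7s1 and Rn7s2, and in 9 of the 39 with a sequence of their own. It was 0 in both libraries in 17 members. The 9 include Gm24497, Gm24305 and Gm23238, which differ from a U1 or U2 copy by 1 to 4 bases, and Gm28006, Gm27624 and Gm27913, which lie inside exons of longer RNAs.

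**Figure D4:**
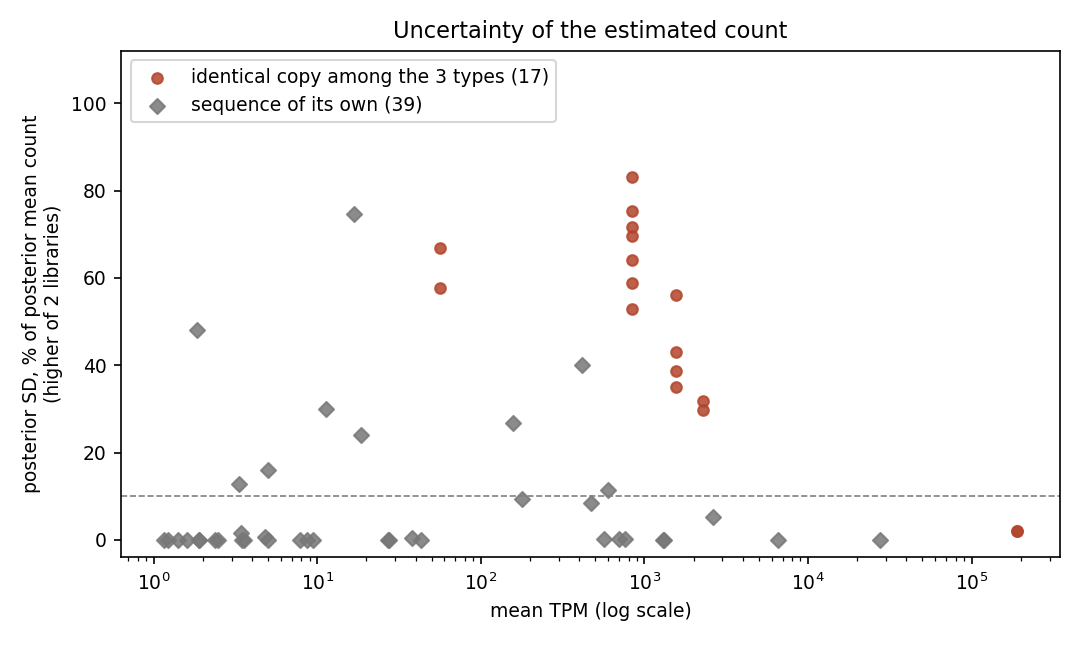
Posterior standard deviation as a percent of the posterior mean count (the higher of the 2 libraries) against mean TPM (log axis) for the 17 members with an identical copy (circles) and the 39 of their own sequence (diamonds). The dashed line marks 10%. The U1 and U2 circles lie between 29.7 and 83.0%, and the pair of 7SL genes lies at far right near 2%.

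Several members overlap other genes of the same strand, whose counts ranged widely. Of 56 members 8 overlapped an exon, 17 lay in an intron and 31 in neither. Here and above, inside an exon means any overlap with an annotated exon of the host. The 8 include Rmrp, whose host is the lincRNA entry of the same symbol. Gm27505, Gm27533 and Gm28006 lie within 0.752 kb of chromosome 19 (5844286 to 5845037) inside an exon of Neat1, the scaffold RNA of nuclear paraspeckles. They summed to 684 TPM in replicate 2 and 652 TPM in replicate 1, and Neat1 itself had 308 TPM in replicate 2 and 186 TPM in replicate 1. By counts the 3 held 505 in replicate 2 and 339 in replicate 1, against 41167 in replicate 2 and 24649 in replicate 1 for Neat1. Neat1 had a ratio of 1.44 (1.41 to 1.46) and the 3 members a summed ratio of 1.28 (1.11 to 1.47), but they did not go the same way. Gm27505 was lower in replicate 2, at 0.759 (0.594 to 0.969), and Gm27533 higher, at 1.59 (1.33 to 1.90), while Gm28006 had 21.1 counts in replicate 2 and 1.19 in replicate 1. Some other hosts held almost no counts. Ccnb1ip1 had 0 in replicate 2 and 3.40 in replicate 1, against 42054 in replicate 2 and 41643 in replicate 1 for Rpph1 inside its exon, and Tex14 had 24 in replicate 2 and 13 in replicate 1, against 1810 in replicate 2 and 1349 in replicate 1 for Rnu1a1 inside its intron. Gm27624, inside an exon of Tug1, had 11.4 TPM in both libraries. Tug1 itself held 4476 counts in replicate 2 and 3813 in replicate 1. Gm25082, inside an exon of Clk4, had 10.9 TPM in replicate 2 and 7.83 TPM in replicate 1. Clk4 itself held 1690 counts in replicate 2 and 1385 in replicate 1. The 8 intronic members of no family lay between 1.01 and 4.74 TPM. Members with at most 10 counts in both libraries numbered 10, of which 8 lay in a host gene.

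At the threshold of 1 TPM the lowest members were Gm23037 at 1.19 TPM in replicate 2 and 1.12 TPM in replicate 1, Gm27782 at 1.01 TPM in replicate 2 and 1.44 TPM in replicate 1, and Gm22637 at 1.27 TPM in replicate 2 and 1.56 TPM in replicate 1. The highest genes left out by mean TPM were Gm26244, at 0 in replicate 2 and 34.5 TPM in replicate 1, Gm22708, at 0 in replicate 2 and 11.9 TPM in replicate 1 from 1 count, and Gm27517, at 0 in replicate 2 and 10.4 TPM in replicate 1. In all, 55 genes reached 1 TPM in 1 library only, 19 in replicate 2 and 36 in replicate 1.

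Genes of the proteins that work with these RNAs stayed under a 2-fold ratio between the libraries wherever they had enough counts to be compared. Of 118 such genes in 9 lists 117 had at least 1 TPM in both libraries, and of 113 with enough counts 0 were 2-fold higher and 0 were 2-fold lower, against 2.41% and 1.1% of all genes. The 36 genes of the snRNP core and of U1, U2, U4, U5 and U6 proteins had a median of 21.3 TPM in replicate 2 and 20.995 TPM in replicate 1. Snrnp70, a U1-specific protein, led them at 148 TPM in replicate 2 and 118 TPM in replicate 1. Sf3b2, of the U2 particle, followed at 66.5 TPM in replicate 2 and 66.0 TPM in replicate 1. The 10 genes of the signal recognition particle and its receptor had a median of 30.3 TPM in replicate 2 and 27.9 TPM in replicate 1, led by Srp14 at 98.5 TPM in replicate 2 and 96.3 TPM in replicate 1 and the receptor gene Srpr at 61.3 TPM in replicate 2 and 71.2 TPM in replicate 1.

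The 7 genes of the 7SK particle and P-TEFb had a median of 21.01 TPM in replicate 2 and 23.0 TPM in replicate 1. Cdk9, the kinase of P-TEFb, had 35.6 TPM in replicate 2 and 31.0 TPM in replicate 1, and Hexim1, its inhibitor on 7SK, had 32.3 TPM in replicate 2 and 32.7 TPM in replicate 1. Among the 10 RNase P and RNase MRP protein genes, with a median of 7.86 TPM in replicate 2 and 9.12 TPM in replicate 1, Pop5 had 31.3 TPM in replicate 2 and 29.9 TPM in replicate 1 and Pop4 18.1 TPM in replicate 2 and 18.97 TPM in replicate 1. The 8 minor spliceosome genes had a median of 10.2 TPM in replicate 2 and 9.23 TPM in replicate 1, led by Zcrb1 (26.4 TPM in replicate 2 and 25.3 TPM in replicate 1) and Zmat5 (19.5 TPM in replicate 2 and 24.0 TPM in replicate 1). The 11 genes for Y RNA, vault and telomerase proteins had a median of 17.3 TPM in replicate 2 and 15.7 TPM in replicate 1, led by Ssb, the La protein (55.6 TPM in replicate 2 and 56.6 TPM in replicate 1), and Mvp, the major vault protein (43.7 TPM in replicate 2 and 40.5 TPM in replicate 1).

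The 16 genes of snRNA transcription and processing had a median of 10.6 TPM in replicate 2 and 12.045 TPM in replicate 1, led by the Integrator genes Ints3 (41.0 TPM in replicate 2 and 46.5 TPM in replicate 1) and Ints4 (30.6 TPM in replicate 2 and 24.1 TPM in replicate 1). The 14 RNA polymerase III genes had a median of 11.0 TPM in replicate 2 and 10.1 TPM in replicate 1, led by Maf1, a repressor of that polymerase (38.8 TPM in replicate 2 and 34.6 TPM in replicate 1), and Brf1, a subunit of its initiation factor (29.95 TPM in replicate 2 and 24.96 TPM in replicate 1). The 6 genes of the U7 particle and histone mRNA processing had a median of 7.95 TPM in replicate 2 and 6.28 TPM in replicate 1, and 5 of the 6 were detected. Cpsf3, the endonuclease, had 25.3 TPM in replicate 2 and 24.3 TPM in replicate 1, and Slbp, which binds the histone stem-loop, had 14.3 TPM in replicate 2 and 11.9 TPM in replicate 1. The lists' median log2 ratios lay between -0.18 and 0.09.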

How the data were processed

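Total RNA-seq of 2 adrenal glands (1 group, 1 library per animal) was read from the deposited gene and transcript tables. The deposited gene tables hold expected counts (not normalized), TPM computed by the authors, and the posterior mean and posterior standard deviation of the count, a score of uncertainty, under column names of RSEM, per the file headers. Further deposited transcript tables give estimated counts and TPM with kallisto's column names, per the file headers, and were summed by gene. The deposited notes give mm10 and GENCODE M21, while tool versions were not given in the sources used here. No pooling is recorded. Gene types, coordinates and sequences came from GENCODE M21.

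TPM were used as deposited. Counts were scaled by TMM factors (edgeR 4.0.16, R 4.3.3), with DESeq2 1.42.0 size factors, library totals and ERCC totals as alternatives, and were rounded for factors and ratios. Ratios carry exact conditional binomial 95% intervals, which like all floors cover counting error only, since the reads carry no molecular identifiers and need not be separate molecules. A gene was called where its mean was at least 100 counts, its ratio at least 2-fold and its interval excluded equality. The log2 medians use CPM + 1, which understates changes of low genes, and a mean of at least 10 counts. The calls were tested on simulated data. Each gene's counts were drawn separately there, so the simulation does not cover the split of reads between identical or similar genes. Families are genes within 25% edit distance of a named RNA over the whole sequence (edlib 1.3.9.post1).

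Members and lists were chosen with earlier results of these data known. Named genes were members without a Gm symbol, the 10 highest by TPM of each type, the 3 lowest members, the 3 highest non-members, those whose quantifications differ most and the top 2 of each protein list. Other Gm genes, such as Gm24497, Gm23238 and Gm24305, were named after their values were seen.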

Additional observations from a re-analysis of the deposited data

Results flagged for a closer look

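The deposited gene tables also hold 26248 entries whose names are plain numbers, without an explanation in the headers or labels. They were used in no comparison, and their summed expected count was 6.27 in replicate 2 and 4.56 in replicate 1, above 0 in 2 entries of replicate 2 and 3 entries of replicate 1.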

How the results depend on the processing

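No paired analysis was possible because the labels name 1 group only. By the kallisto-format tables all members took 50.6% of TPM and 4.96% of counts, snRNA members 0.000413% and 2.03e-05%, misc_RNA members 49.8% and 4.87%, and ribozyme members 0.756% and 0.0827%. The posterior mean gave ribozyme members 0.972% of TPM. The lincRNA entry of Rmrp, an alternative chosen after seeing the data, raised ribozyme members to 1.28% of TPM and 0.230% of counts. All other alternatives that use both animals left the shares within the spread between the animals. A share without 1 animal is that of the other animal, so it lies within this spread by construction. Without 1 animal the TPM share of all members was 42.2 to 46.1%, of snRNA 2.01 to 2.43%, of misc_RNA 38.7 to 43.1% and of ribozymes 0.987 to 1.01%, and their count shares were 7.24 to 8.44%, 0.144 to 0.160%, 6.90 to 8.10% and 0.177 to 0.192%. The rule kept 30 genes by kallisto, 14 of them members, 1026 by posterior mean TPM, 68 at 0.5 TPM and 39 at 5 TPM, and 75 to 92 in 1 library alone. The median log2 ratio was 0.081 with 5 CPM added, 0.016 without a count minimum, 0.018 by posterior mean, -0.23 by kallisto and -0.0012 with identical copies summed. The number of members called was 1 by posterior mean and 0 by kallisto. The log2 ratio of Gm24497 was -0.36 by posterior mean, and that of U2 was -0.090 by kallisto, from 5.89 counts in replicate 2 and 7.48 in replicate 1. Between DESeq2 and ERCC scaling the log2 ratio ran from 0.075 to 0.15 for U1 and from 0.063 to 0.14 for U2. It ran from -0.28 to -0.20 for 7SL and from -0.25 to -0.17 for 7SK. With ERCC or library totals each of these ratios lay outside its counting interval. The 20 gene levels recomputed all moved by kallisto beyond the spread between animals, and 3 of 20 by posterior mean. The causes were not tested. The replicate ratio could not be recomputed without an animal. Few counts limit U11, U12 and Y RNA.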
